A study of Mus musculus with 4 samples.

Results

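A set of 757 IRF4 peaks was listed in *Junb*-deficient Treg cells at positions where a JunB peak was listed in *Junb*-sufficient cells and where no IRF4 peak was listed in *Junb*-sufficient cells. The peaks were chosen by overlap alone: each had at least 1 bp in common with a JunB peak and none with a *Junb*-sufficient IRF4 peak. They are called *Junb*-deficient-only IRF4 peaks here. They were 757 of the 10181 *Junb*-deficient IRF4 peaks at JunB peaks (7.44%), whereas over all 29033 *Junb*-deficient IRF4 peaks 8815 (30.4%) had no *Junb*-sufficient counterpart. Because the selection used this contrast, these shares describe the set and nothing was read from them. The 4 peak lists together held 103355 peaks.

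The study compared the DNA-binding of JunB, BATF, and IRF4 in regulatory T (Treg) cells with and without JunB, by chromatin immunoprecipitation-sequencing (ChIP-seq), in which an antibody pulls down a factor together with its DNA, the DNA is sequenced, and a peak is called where reads exceed their surroundings. Splenic CD4+CD25+ Treg cells of C57BL/6 mice were activated for 60 h by antibodies to CD3 and CD28 with added IL-2. Of the 4 libraries, 3 came from *Junb*-sufficient cells, one for each factor, and the fourth was an IRF4 library of *Junb*-deficient cells. With 1 library per condition, genotypes were not tested against each other. The sample labels name the genotypes Foxp3cre JUNB+/+ and Foxp3cre JUNBFl/Fl, in which the recombinase is driven by the promoter of *Foxp3*, the lineage factor of Treg cells, whereas the methods of the study give *Junb* fl/fl for the control and, for the deletion, *Cd4*Cre *Junb* fl/fl, in which deletion reaches all T cells that have expressed CD4. Which of these lines was used cannot be told apart from the lists. An antibody field in the labels also exchanges BATF and IRF4 for the *Junb*-sufficient libraries. The sample titles and the methods were followed here. Ages were not given in the labels. The methods of the study give an age range in weeks for its mice in general.

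JunB and BATF belong to the basic leucine zipper factors of the AP-1 family, which bind DNA as dimers, and JunB is one of the partners of BATF. IRF4 is induced by T cell receptor signals and is needed for the differentiation of effector Treg cells. It binds poorly as a single factor and is recruited with partners: with BATF-JUN dimers at AP-1-IRF composite elements (AICE), with ETS factors at EICE, and with itself or other IRFs at interferon-stimulated response elements (ISRE).

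The reference sequences of some *Junb*-deficient-only IRF4 peaks are shown first, since these peaks were listed without JunB although several carry an element for AP-1. The first group holds AICE matches from among those that stood highest in the IRF4 list and lay outside exons, and that in *Il12rb2*, a listed gene, as 61 bases on the plus strand of mm9 with the AICE in capitals. An AICE was searched on both strands as TTTCNNNNTGANTNA or GAAATGANTNA, and it can contain the AP-1 letters.
m456, upstream of *Vps54*: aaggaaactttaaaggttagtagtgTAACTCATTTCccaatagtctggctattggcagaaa
m709, upstream of *Mrpl1*: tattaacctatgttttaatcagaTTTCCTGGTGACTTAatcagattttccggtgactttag
m1195, upstream of *Myb*: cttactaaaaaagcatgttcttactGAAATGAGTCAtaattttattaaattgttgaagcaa
m2075, in *Trat1*: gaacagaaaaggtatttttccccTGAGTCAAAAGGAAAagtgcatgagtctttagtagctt
m5647, in *Il12rb2*: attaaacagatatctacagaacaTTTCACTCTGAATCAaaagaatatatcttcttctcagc
Peaks are named by their place in the *Junb*-deficient IRF4 list, so that m456 was the peak at place 456. These stretches lie at chr11:21123074-21123134, chr5:96634931-96634991, chr10:20882223-20882283, chr16:48737492-48737552 and chr6:67292731-67292791. The second group holds the whole JunB peak, 151 bases on the plus strand, at 4 *Junb*-deficient-only IRF4 peaks to which the results below return. Capitals mark AP-1, searched as TGACTCA or TGAGTCA.
m1182, in *Ctla4*: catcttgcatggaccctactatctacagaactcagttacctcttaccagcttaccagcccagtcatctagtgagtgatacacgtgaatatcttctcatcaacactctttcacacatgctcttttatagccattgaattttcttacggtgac
m2886, in *Cd28*: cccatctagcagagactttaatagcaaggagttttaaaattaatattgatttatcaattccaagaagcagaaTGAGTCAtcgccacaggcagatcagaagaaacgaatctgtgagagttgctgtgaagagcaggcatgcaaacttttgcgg
m2013, upstream of *Bhlhe40*: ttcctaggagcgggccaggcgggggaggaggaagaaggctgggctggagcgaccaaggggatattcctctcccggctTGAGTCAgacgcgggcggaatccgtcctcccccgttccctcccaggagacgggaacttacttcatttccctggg
m834, in *Jak2*: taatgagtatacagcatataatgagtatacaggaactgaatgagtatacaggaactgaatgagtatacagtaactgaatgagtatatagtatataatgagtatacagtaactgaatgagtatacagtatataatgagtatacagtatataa
These JunB peaks lie at chr1:60962498-60962648, chr1:60806251-60806401, chr6:108610008-108610158 and chr19:29331143-29331293. The AP-1 letters stood once in the JunB peaks in *Cd28* and upstream of *Bhlhe40*. The JunB peak in *Ctla4* held neither AP-1 nor AICE, and that in *Jak2* consisted of a repeated run, in which the most frequent run of 10 bases, aatgagtata, occurred 8 times.

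The lists held 29659 JunB, 13570 BATF, 31093 *Junb*-sufficient IRF4, and 29033 *Junb*-deficient IRF4 peaks, called from between 16.0 M (JunB) and 17.9 M (IRF4, *Junb*-deficient) tags that remained per library after a limit of 1 tag per position. The score was 1 for every peak, so the strength of binding is not in the lists and a peak is either listed or not listed. The place in the list was used as an order of strength. The order is not stated in the lists, and shares below are therefore given along it. Some runs of consecutive places followed position along the chromosome. JunB places 14804 to 14806 and 17523 to 17526 did so in the region from *Cd28* to *Icos*. A single place is thus only a rough measure of strength. Intervals are exact (Clopper-Pearson) binomial 95% intervals and cover counting error over peaks only, not the difference between cultures or mice. Where intervals overlapped, this does not show that the shares were equal, as differences were not tested. The lists hold no expression values, so the deletion of *Junb* and the identity of the cells could not be checked against marker genes. No *Junb*-deficient IRF4 peak at a JunB peak lay within 100 kb of the *Junb* start, whereas 3 lay within that distance of *Foxp3*, all with a *Junb*-sufficient counterpart.

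At the edge of the selection, the smallest gap between a *Junb*-deficient-only IRF4 peak and a *Junb*-sufficient IRF4 peak was 18 bp, and the smallest overlap among peaks with a counterpart was 3 bp. Gaps of at most 50 bp were found for 3 selected peaks and gaps of at most 300 bp for 14, whereas 261 peaks with a counterpart shared at most 300 bp with it. By their gaps, most selected peaks were thus not close to the border. Peaks with a counterpart shared a median of 589 bp with it. The size of the set still depended on the rule. With overlap of 50% of the narrower peak required it was 925, and with centres within 100 bp it was 1076. The JunB peak lay wholly inside the IRF4 peak for 710 of the 757, and 47 shared less than the whole JunB peak, down to 2 bp. A single JunB peak was overlapped by 752 and a pair of JunB peaks by 5, which gave 762 JunB peaks.

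*Junb*-deficient-only IRF4 peaks stood at places 8 to 29015 of the list, with a median place of 12707, 43.8% of the way down (quartiles 6405 and 20305). IRF4 peaks at JunB peaks listed in both genotypes stood higher, at a median of 22.6% of the list, and *Junb*-deficient-only IRF4 peaks off JunB stood lower, at 72.8%. The number of selected peaks was similar in each of 10 equal parts of the list, between 55 and 96, but their share of the IRF4 peaks at JunB peaks increased from 2.90% in the first part (95% interval 2.28 to 3.63%) to 22.1% in the last (17.6 to 27.1%). Along the JunB list the share increased from 1.35% in the first part (0.928 to 1.91%) to 18.3% in the last (14.8 to 22.3%). The JunB peaks under the selected IRF4 peaks stood at a median of 53.7% of the JunB list, compared with 24.9% for IRF4 peaks listed in both genotypes and 39.5% for those of *Junb*-sufficient cells alone. Hence low places in either list went with the lack of a counterpart, but the upper 50% of the IRF4 list still held 430 of the 757.

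**Figure D1:**
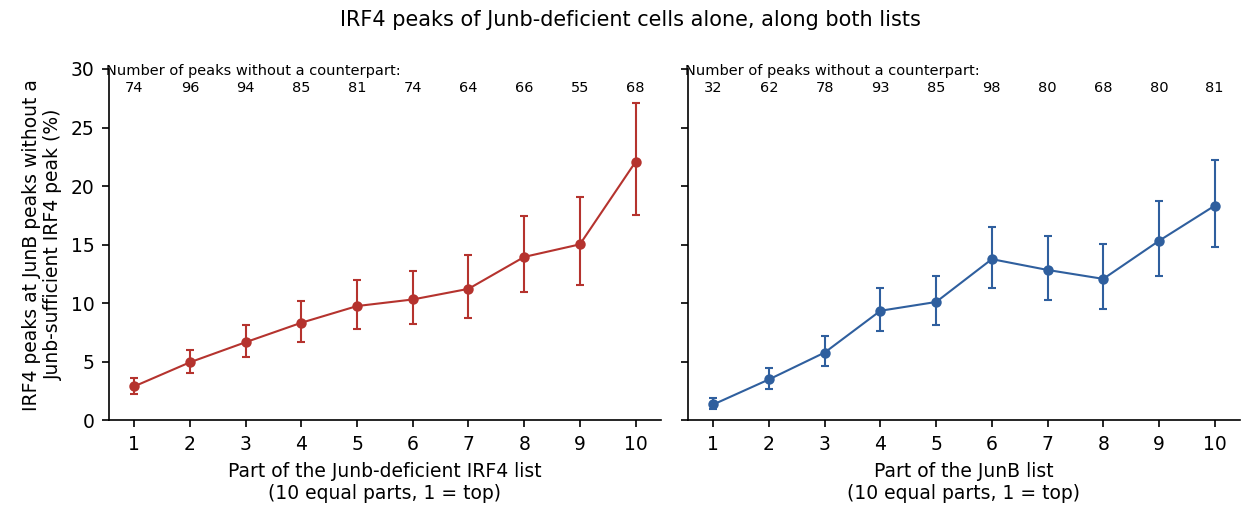
Share of Junb-deficient IRF4 peaks at JunB peaks that had no Junb-sufficient counterpart (percent) in each of 10 equal parts of the Junb-deficient IRF4 list (left) and of the JunB list (right), where part 1 holds the top of the list. Points are shares, bars exact 95% intervals, and the numbers above give the peaks without a counterpart, and the share increased from 2.90 to 22.1% along the IRF4 list and from 1.35 to 18.3% along the JunB list.

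With the libraries taken as titled, BATF was listed at fewer of these peaks than of those in both genotypes. The selection did not use BATF, but it left out sites with a *Junb*-sufficient IRF4 peak, and BATF was mapped in the same genotype. With BATF and IRF4 exchanged, as in the antibody field, the selection gave 2614 peaks, of which 77.5% overlapped the list then taken as BATF, so the shares of BATF below hold for the titles only. A BATF peak of *Junb*-sufficient cells overlapped 169 of the 757 *Junb*-deficient-only IRF4 peaks (22.3%, 19.4 to 25.5%), compared with 78.5% (77.7 to 79.3%) of the 9424 IRF4 peaks at JunB peaks listed in both genotypes. IRF4 peaks at JunB peaks listed in *Junb*-sufficient cells alone were in between, at 49.3% (47.5 to 51.1%) of 2979. Off JunB, 2.74% of the 8058 *Junb*-deficient-only IRF4 peaks overlapped BATF. Among JunB peaks, a BATF peak overlapped 21.7% of the 762 under selected IRF4 peaks and 76.8% of those under IRF4 peaks in both genotypes. BATF overlapped 3.91% of the 16017 JunB peaks without IRF4 in either genotype and 32.9% of all JunB peaks. The share at selected peaks was thus lower than over all JunB peaks and higher than at JunB peaks without IRF4. The gap to peaks in both genotypes was present in each of the 10 parts of the list. In the first part BATF was at 32.4% (22.0 to 44.3%) of 74 selected peaks and at 92.9% of those in both genotypes, and in the last at 30.9% and 54.6%. When the peaks in both genotypes were weighted to the places of the selected peaks, their share was 71.6% by parts of the IRF4 list and 66.4% by parts of the JunB list. BATF was not immunoprecipitated from *Junb*-deficient cells, and its binding there is not known from these lists.

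Selected peaks with and without BATF differed in further respects. Those with BATF lay at higher JunB peaks, at a median of 35.8% of the JunB list compared with 57.3% for those without. Their BATF peaks stood at a median of 54.1% of the BATF list, whereas for IRF4 peaks in both genotypes it was 31.6%. The centres of JunB and IRF4 peaks were 21 bp apart in the median with BATF and 43 bp without, and they were within 100 bp for 92.9% (87.9 to 96.3%) and 79.1% (75.6 to 82.3%). Over all 757 the median was 37 bp (quartiles 15 and 73 bp), and 82.2% (79.2 to 84.8%) were within 100 bp, compared with 28 bp and 88.6% of the peaks in both genotypes. The distance to the nearest *Junb*-sufficient IRF4 peak was similar, with medians of 6957 bp with BATF and 7331 bp without.

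Matches to the AP-1 letters were found within 100 bp of the IRF4 centre, a window of 201 bp, in 135 *Junb*-deficient-only IRF4 peaks (17.8%, 15.2 to 20.8%). This was less than in the peaks listed in both genotypes (33.8%, 32.9 to 34.8%) and in *Junb*-sufficient cells alone (49.0%, 47.2 to 50.8%), and more than in the *Junb*-deficient-only peaks off JunB (6.18%). Over all *Junb*-deficient IRF4 peaks the share was 17.3%. With peaks in both genotypes weighted to the places of the selected peaks, their AP-1 share was 36.2% by the IRF4 list and 28.1% by the JunB list. In windows centred on JunB, AP-1 was at 18.8% (16.1 to 21.7%) of the 762 JunB peaks under the selected IRF4 peaks, 36.3% of those under IRF4 peaks in both genotypes, 12.9% of the 16017 JunB peaks without IRF4 in either genotype, and 24.5% of all JunB peaks. Selected peaks with BATF held AP-1 in 24.9% (18.5 to 32.1%) and those without in 15.8% (13.0 to 19.0%), intervals that overlapped only from 18.5 to 19.0%.

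AICE matches were present in 38 *Junb*-deficient-only IRF4 peaks, 5.02% (3.58 to 6.83%), compared with 8.00% (7.46 to 8.57%) of the peaks in both genotypes, 6.45% of the peaks in *Junb*-sufficient cells alone, and 4.19% of all *Junb*-deficient IRF4 peaks. The sequences above are among these 38, of which 13 overlapped a BATF peak and 25 did not. AICE letters stood at 7.69% (4.16 to 12.8%) of the selected peaks with BATF and at 4.25% (2.77 to 6.21%) of those without, intervals that overlapped. Weighted to the places of the selected peaks, the share in both genotypes was 7.45% by the IRF4 list and 6.68% by the JunB list, the latter within the interval of the selected peaks. ISRE letters (GAAANNGAAA) were as common in the selected peaks (10.4%, 8.35 to 12.8%) as in peaks of both genotypes (10.9%) or in all *Junb*-deficient IRF4 peaks (11.7%). They stood at 4.43% of the IRF4 peaks of *Junb*-sufficient cells alone and 4.14% of the JunB peaks without IRF4. EICE letters (GGAANNGAAA) were at 2.77% (1.73 to 4.21%) and 3.40%, RUNX letters (TGTGGTT) at 12.7% (10.4 to 15.3%) and 13.2%, and TCF letters (CTTTGAT) at 5.81% and 5.22% of selected peaks and of peaks in both genotypes, and these differences were within the intervals. All letters were searched on both strands, and ISRE and EICE can share bases with one another and with AICE.

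ETS letters (CCGGAAG) were at 3.96% (2.69 to 5.61%) of the *Junb*-deficient-only IRF4 peaks, above the 1.60% (1.36 to 1.88%) of peaks in both genotypes and close to the 4.36% of all *Junb*-deficient IRF4 peaks. They were concentrated near promoters. Of the 95 selected peaks within 1 kb of a protein-coding transcription start site (TSS), 20 held the ETS letters (21.1%, 13.4 to 30.6%), compared with 10 of the other 662 (1.51%, 0.727 to 2.76%). The promoter peaks had a median GC content of 55.2% compared with 39.8% for the others, and they held AP-1 in 7 cases (7.37%, 3.01 to 14.6%) compared with 128 (19.3%, 16.4 to 22.6%). None of the 95 held AICE (upper limit 3.81%), and BATF was at 16.8% (9.94 to 25.9%) compared with 23.1% (20.0 to 26.5%).

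**Figure D2:**
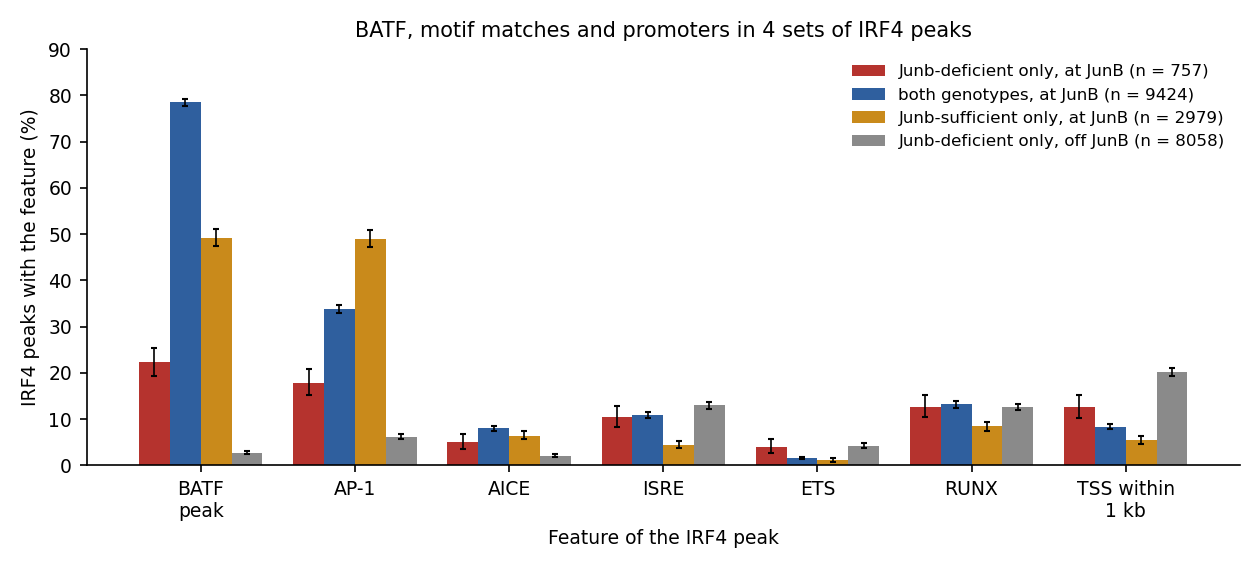
Share of IRF4 peaks (percent) with a BATF peak, with a match to each motif in the 201 bp around the centre, and within 1 kb of a protein-coding TSS, for 4 sets of IRF4 peaks whose sizes are in the legend. Bars are shares with exact 95% intervals, and the Junb-deficient-only peaks at JunB were lowest of the 3 sets at JunB for BATF (22.3%) and AP-1 (17.8%).

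A promoter was more often near the *Junb*-deficient-only IRF4 peaks than near peaks of both genotypes. A TSS lay within 1 kb for 12.5% (10.3 to 15.1%) and 8.31% (7.76 to 8.88%), respectively, compared with 5.47% of the IRF4 peaks of *Junb*-sufficient cells alone and 19.4% of all *Junb*-deficient IRF4 peaks. Weighted to the places of the selected peaks in the JunB list, the share in both genotypes was 10.9%, within the interval of the selected peaks. Introns held 377 of the 757, exons 46, and intergenic sequence 334. Among the 10 promoter peaks highest in the list was m2013, centred 537 bp upstream of *Bhlhe40*, a transcriptional repressor induced by T cell activation. It was not listed with BATF, its JunB peak stood at place 9401, the centres of both peaks were 3 bp apart, and the AP-1 letters are in capitals above. Others lay 398 bp downstream of a TSS of *Celf2*, an RNA-binding splicing factor (m481), 629 bp downstream of one of *Inpp4b*, a phosphoinositide phosphatase (m2302), 811 bp upstream of one of *Laptm5*, a lysosomal regulator of T cell receptor levels (m2824), and 310 bp upstream of *Sesn2*, a stress-induced regulator of mTORC1 (m3200). Of these, BATF was listed at *Laptm5* alone. The rest lay at *Gm10722*, *Lrmp*, *Gpr33*, *AW112010*, and *5033414D02Rik*, and at the last 4 of these the JunB peak stood at places 15394 to 22660.

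The distance from a *Junb*-deficient-only IRF4 peak to the nearest *Junb*-sufficient IRF4 peak was 7201 bp in the median between centres, with quartiles of 2911 and 18196 bp. The peaks fell into 50 (6.61%) with a *Junb*-sufficient peak closer than the spacing that the peak caller keeps between IRF4 peaks, which is about the width of a pair of peaks, 399 (52.7%) with one farther away but within 10 kb, and 308 (40.7%) with none within 10 kb. Distances were shorter in the upper 50% of the list, with a median of 4405.5 bp, than in the lower 50%, with 14356 bp. IRF4 peaks of *Junb*-sufficient cells alone at JunB were at a median of 10507 bp from the nearest *Junb*-deficient peak. The 3 closest peaks, in *Epc2* (m12342), in *Pnpla8* (m19509), and 21391 bp downstream of *Ctsc* (m16496), had centres 627, 627, and 630 bp from a *Junb*-sufficient peak, and none of those neighbours was listed in *Junb*-deficient cells. The 3 farthest, near *Gm9008* (m14900), *Gm2790* on chromosome X (m22624), and *4931408C20Rik* (m27388), were 2317546, 2960967, and 2006086 bp away, and all 3 stood in the lower 50% of the list.

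**Figure D3:**
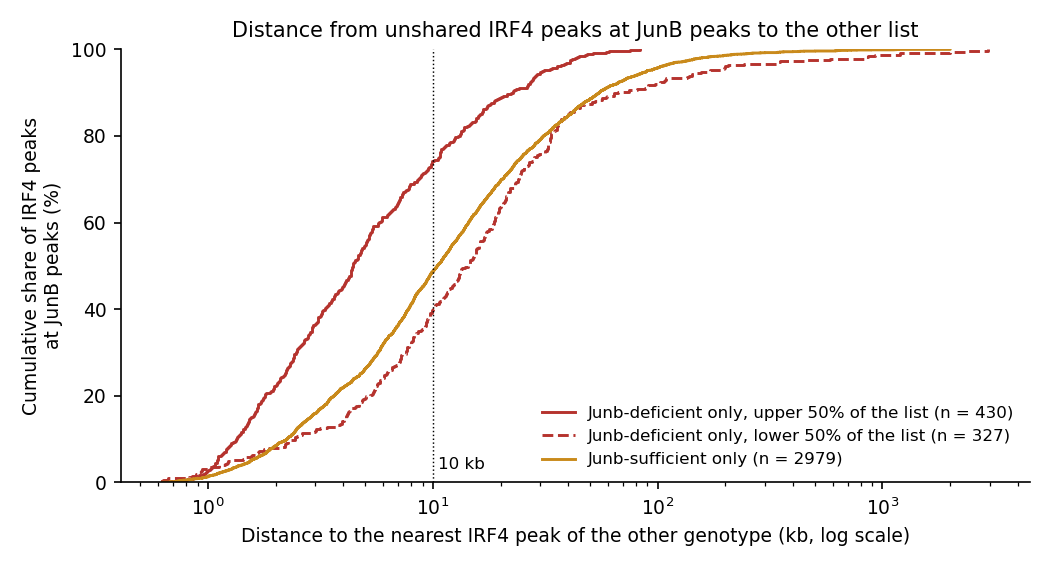
Cumulative share (percent) of unshared IRF4 peaks at JunB peaks against the distance between centres to the nearest IRF4 peak of the other genotype (kb, log axis). Lines are Junb-deficient-only peaks in the upper (n = 430) and lower (n = 327) 50% of their list and Junb-sufficient-only peaks (n = 2979), with medians of 4405.5, 14356, and 10507 bp.

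Within that spacing, the neighbour was itself listed in *Junb*-deficient cells in 1 of 50 cases (2.00%, 0.0506 to 10.6%), so that nearly all of these were a pair of IRF4 peaks a short way apart, each listed in a single genotype. At greater distances the neighbour was listed in both genotypes in 230 of 399 cases (57.6%) and 207 of 308 (67.2%). The peak caller keeps *Junb*-deficient peaks 1210 bp apart and so leaves little room for a listed counterpart there. BATF was at 15 of the 50, at 22.6% of the 399, and at 20.8% of the 308, and AP-1 at 12 of the 50, 18.3%, and 16.2%, with intervals that overlapped.

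A *Junb*-sufficient IRF4 peak other than a counterpart was near most of the *Junb*-deficient-only IRF4 peaks. One lay within 10 kb of 449 of the 757 (59.3%, 55.7 to 62.8%), compared with 40.8% (39.8 to 41.8%) of the peaks in both genotypes, or 37.1% when these were weighted to the places of the selected peaks in the IRF4 list. The contrast was found at the top of the list and not at its end. In the first of the 10 parts, 63 of 74 had such a neighbour (85.1%, 75.0 to 92.3%), compared with 48.0% of the peaks in both genotypes, and in the last it was 36.8% (25.4 to 49.3%) and 29.6%. The other direction gave similar shares, with the same limit. Of the IRF4 peaks at JunB of *Junb*-sufficient cells alone, 81.9% (74.7 to 87.7%) in the first part of their list had another *Junb*-deficient peak within 10 kb, compared with 46.0% of those with a counterpart. The peak caller compares each peak with its surrounding 10 kb and removed 37.4% of the putative IRF4 peaks in *Junb*-sufficient cells and 36.2% in *Junb*-deficient cells by this filter. Its part in the lack of a counterpart was not tested, because removed peaks are not in the lists.

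**Figure D4:**
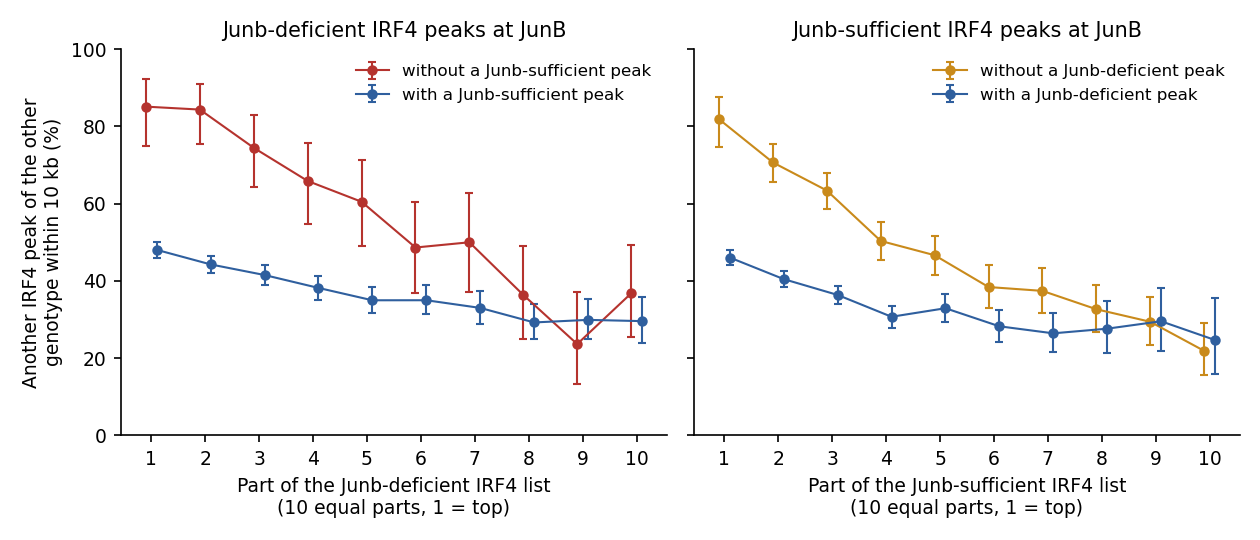
Share of IRF4 peaks at JunB peaks (percent) with another IRF4 peak of the other genotype within 10 kb, by part of the Junb-deficient list (left) and the Junb-sufficient list (right), for peaks without and with a counterpart in the other genotype. Points are shares and bars exact 95% intervals, and in the first part the shares were 85.1 and 48.0% on the left and 81.9 and 46.0% on the right. The spacing kept by the peak caller leaves peaks with a counterpart little room for another peak close by.

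The strongest neighbours within 10 kb of these 449 peaks stood at a median of 20.7% of the *Junb*-sufficient list, and at 14.5% and 44.4% for peaks in the upper and lower 50% of the *Junb*-deficient list. For neighbours of peaks in both genotypes the median was 27.1%, and 58.5% (57.0 to 60.1%) of those neighbours lay at a JunB peak. Of the 449, 307 (68.4%, 63.9 to 72.7%) lay at a JunB peak, and 255 were listed in both genotypes (56.8%, 52.1 to 61.4%), compared with 68.0% of the neighbours of peaks in both genotypes. The 255 stood at a median of 13.9% of the *Junb*-sufficient list and 16.7% of the *Junb*-deficient list. They were lower in *Junb*-deficient cells in 147 cases (57.6%, 51.3 to 63.8%), compared with 54.5% (52.6 to 56.5%) of such neighbours of peaks in both genotypes. In *Junb*-deficient cells the neighbour was above the selected peak in 186 of the 255 (72.9%, 67.0 to 78.3%). For peaks in both genotypes it was above in 44.5% (42.6 to 46.4%). Selected peaks stood lower in the list, at a median of 43.8% compared with 22.6%, so more of the list lay above them. Selected peaks seldom lay near one another, as 30 had another of the 757 within 10 kb.

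Listed genes of effector Treg cells had *Junb*-deficient-only IRF4 peaks within 100 kb of a TSS in 11 of 32 cases. Over the list, 12 of the 137 *Junb*-deficient IRF4 peaks at JunB were without a counterpart (8.76%, 4.61 to 14.8%), close to the 7.44% over all. In *Ctla4*, which encodes an inhibitory receptor that Treg cells use to lower CD80 and CD86 on other cells, m1182 (chr1:60962275-60962879) lay in an intron 3292 bp upstream of a TSS. It stood at place 1182 of the IRF4 list, JunB was listed at place 1723, its centre 4 bp away, and BATF was not listed. The nearest *Junb*-sufficient IRF4 peak stood at place 396 and lay 3204 bp away over the *Ctla4* TSS, and that peak was not listed in *Junb*-deficient cells. In *Tigit*, an inhibitory receptor of effector Treg cells, m3072 (chr16:43661577-43662181) lay in an intron with JunB at place 2078 and no BATF, 2594 bp from a *Junb*-sufficient peak that was listed in both genotypes.

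At *Havcr2*, which encodes the inhibitory receptor TIM-3, there were a pair of these peaks: m4454, 6456 bp upstream of the TSS without BATF, and m9952, 110 bp upstream with BATF. The former lay 1144 bp from a *Junb*-sufficient peak at place 1492 that was not listed in *Junb*-deficient cells. Near *Prdm1*, which encodes Blimp-1, a transcriptional repressor expressed in effector Treg cells, m1690 lay 80687 bp downstream, 3084 bp from a *Junb*-sufficient peak at place 260 that stood at place 873 in *Junb*-deficient cells. A TSS of *Atg5* was closer to m1690, at 31845 bp. Single peaks further lay 162 bp downstream of a TSS of *Maf*, a transcription factor of IL-10-producing cells (m12707), in *Pdcd1*, which encodes PD-1 (m8258, with BATF), and in an exon of *Il2ra*, which encodes CD25 (m8958, with BATF and AP-1). The peak in *Il2ra* lay 48689 bp from the nearest *Junb*-sufficient peak and that at *Maf* 19367 bp. *Il10*, *Gzmb*, *Il1rl1*, and *Fgl2* had 5, 5, 5, and 7 *Junb*-deficient IRF4 peaks at JunB within 100 kb and none was without a counterpart.

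Genes of T cell receptor signalling and costimulation held 16 such peaks among 109 (14.7%, 8.63 to 22.7%), near 12 of 26 genes, beside 7.44% over all. The gene lists share peaks, since m4454, m9952, and m18647 counted both here and among those of effector Treg cells. *Cd28*, the costimulatory receptor that was engaged in these cultures, had the most, with 4 of 9. In introns of *Cd28*, m2886 (chr1:60806038-60806642) carried the AP-1 match printed above, with JunB at place 3862, and m3082 (chr1:60818239-60818843) lay with JunB at place 2783. Downstream of the gene m1488 stood at place 1488 and m18647 at place 18647. The latter lay 70819 bp from a *Cd28* TSS and 69779 bp from a *Ctla4* TSS, and it counted for both genes. None of the 4 overlapped BATF. A *Junb*-sufficient IRF4 peak at place 2805 lay 1429 bp from m3082 and was not listed in *Junb*-deficient cells.

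The region from *Cd28* over *Ctla4* to *Icos* was drawn because it held 5 of the selected peaks, and it was chosen after its values were seen. Within its 303521 bp (chr1:60763644-61067164) there were 38 JunB, 13 BATF, 20 *Junb*-sufficient IRF4, and 21 *Junb*-deficient IRF4 peaks. Of the 17 *Junb*-deficient IRF4 peaks at JunB, 12 had a counterpart and 5 had none. The latter were m1182 and the 4 within 100 kb of a *Cd28* TSS, of which m18647 was within 100 kb of *Ctla4* as well. In the other direction, 4 of the 15 *Junb*-sufficient IRF4 peaks at JunB had no *Junb*-deficient counterpart, one of them over the *Ctla4* TSS. No selected peak lay closer to *Icos*, the costimulatory receptor of effector Treg cells, than m1182.

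**Figure D5:**
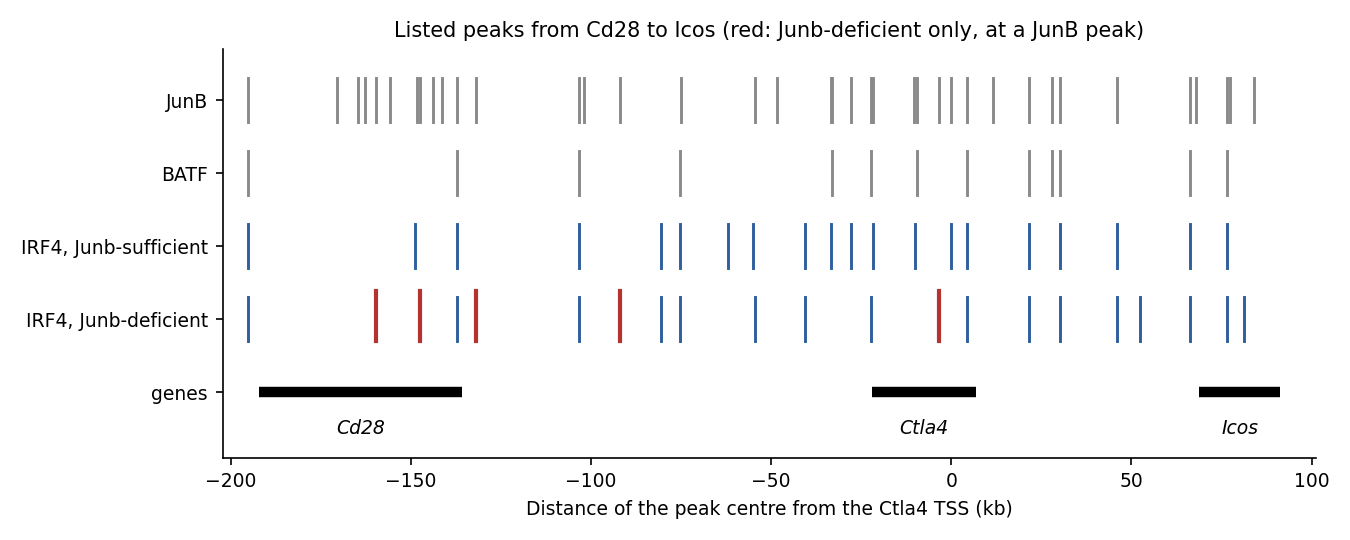
Listed peaks of the 4 libraries along the region from Cd28 to Icos, as the distance of each peak centre from the Ctla4 TSS (kb), with gene spans below. Each tick is 1 listed peak and does not show strength, and the 5 red ticks are IRF4 peaks at JunB listed in Junb-deficient cells alone, 4 within 100 kb of a Cd28 TSS and 1 in Ctla4.

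Other peaks of this list lay in *Cd247*, the zeta chain of the receptor complex (m1453, JunB at place 551, without BATF), in *Cblb*, a ubiquitin ligase that dampens activation (m1873), upstream of *Ptpn22*, a phosphatase that lowers receptor signals (m5976, with BATF), and in *Prkcq*, which encodes protein kinase C theta (m6649). *Dusp4*, *Dusp5*, and *Dusp6*, phosphatases of MAP kinases, had 1 each. That at *Dusp4* (m687) lay 66786 bp upstream with BATF at place 1813 and stood highest of all peaks near a listed gene. Its nearest *Junb*-sufficient peak, 4127 bp away at place 1946, was not listed in *Junb*-deficient cells.

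Among helper and other T cell transcription factors, 12 of 121 peaks were selected (9.92%, 5.23 to 16.7%), near 10 of 31 genes. Upstream of *Myb*, a factor of lymphocyte differentiation and survival, m1195 (chr10:20881952-20882556) lay 1464 bp from the TSS, and its AICE contains AP-1, as printed above. JunB was at place 12037, BATF was not listed, and the *Junb*-sufficient neighbour 3625 bp away stood at place 1069 and at place 552 in *Junb*-deficient cells. In *Ets1*, m2867 overlapped BATF at place 3652 and carried ISRE letters. At 93240 bp from *Id2*, an inhibitor of E proteins, m4178 carried AP-1. Single peaks lay within 100 kb of *Nfkb1* (m1701), *Ikzf1* (m5505), *Foxo1* (m17292), and *Tbx21*, which encodes T-bet (m11981, in an exon of *Tbkbp1*). A pair lay near *Rora* (m6696, m25727) and near *Rel*, an NF-kB subunit needed for Treg development, both within *Pus10* (m5425, m8687).

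Of the genes of resting cells and homing, 6 of 16 had a selected peak, 6 of 78 peaks in all (7.69%, 2.88 to 16.0%). *Ccr7*, the lymph node homing receptor, had m4176, *Gpr15*, a gut homing receptor, m5605, and *Ccr9* and *Cxcr6* shared m7017. Cytokines and their receptors held 7 of 86 (8.14%, 3.34 to 16.1%), near 6 of 25 genes. They included m5647 in *Il12rb2*, a subunit of the IL-12 receptor, with the AICE shown above, and m1700 in *Il6ra* with BATF and AP-1. Farther away, m3978 lay 57255 bp from *Csf2*, which encodes GM-CSF, and m2022 lay in an intron of *Nfkbil1*, 29299 bp from *Tnf*, both with BATF.

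Genes of the AP-1 and Bach families had none, with 0 of 43 peaks (upper limit 8.22%) near 13 genes, 18 of them near *Bach2*. Since 7.44% lies within this limit, a lack in comparison with the other peaks was not detectable. Of the IRF genes, *Irf5* and *Irf7* had 1 each, 2 of 24 peaks (8.33%, 1.03 to 27.0%). At *Junb*, *Cd4*, and *Foxp3*, the loci of the manipulated gene and of the promoters that can drive the recombinase, 0 of 4 peaks was selected (upper limit 60.2%). In all, 52 of the 757 lay near a listed gene.

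Most of the peaks that stood highest in the IRF4 list were not near listed genes, whereas m687 lay near *Dusp4*. The highest, m8, lay at the start of the sequenced part of chromosome 9 (chr9:3000254-3000858), 366 bp upstream of *Gm10722*, with JunB at place 5 and BATF at place 4, and a *Junb*-sufficient peak 1579 bp away stood at place 6 in both IRF4 lists. This stretch is tandem satellite repeat, where short reads are hard to place. Next among those with BATF were m687 near *Dusp4*, m688 (chr11:119022797-119023401) in *Tbc1d16*, with JunB at place 786 and BATF at place 367, and m834 (chr19:29330879-29331483) in *Jak2*, the kinase of cytokine receptors, with JunB at place 35 and BATF at place 41 over the repeated run printed above. The *Junb*-sufficient IRF4 peaks nearest to m688 and m834 were 27791 and 5069 bp away. Repeats thus lay under m8 and m834, and their part was not tested.

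Without BATF, the highest were m456 upstream of *Vps54*, m481 in *Celf2*, m491 in *Cytip*, which regulates leukocyte adhesion, m709 upstream of *Mrpl1*, m726 in *Rad51l1*, and m743 upstream of *Ppp1cb*. Their JunB peaks stood at places 2456 to 14095, lower than those of m688 and m834. That of m687, also with BATF, stood at place 9460, within this range. The nearest *Junb*-sufficient IRF4 peak was not listed in *Junb*-deficient cells for m456, m481, m491, and m709 and was listed in both genotypes for m726 and m743. Further AICE matches lay in *Trat1*, an adaptor of the T cell receptor complex (m2075, with BATF at place 2423 and a *Junb*-sufficient peak 1166 bp away), and in an exon of *Bcl2l11*, which encodes the death-inducing protein BIM (m3285, with JunB at place 1164). The share of selected peaks ranged over chromosomes from 5.53% of the *Junb*-deficient IRF4 peaks at JunB on chromosome 13 to 10.8% on chromosome 2 (84 of 778, 8.70 to 13.2%).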

How the data were processed

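ChIP-seq peak lists of 4 libraries, 1 per condition, were analysed. Bowtie2 alignments to mm9 were used by the authors, who give the option -m 1, which drops reads with more than 1 reportable position. They called peaks per library with HOMER (version 4.8 in the submitters' processing notes), without an input library per the file headers, at a false discovery rate of 0.001 and 4-fold over the surrounding 10 kb. The deposited lists give positions and a score, which was 1 for every peak and was not used. Starts were counted from 1.

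Peaks with at least 1 bp in common overlapped. Distances were measured between centres. Sequence and annotation came from NCBIM37, the assembly of mm9, and GENCODE vM1 (78261 protein-coding TSSs). Motifs were matched as fixed letters. The selection and the gene lists were chosen with earlier results of these data known. Peaks named were the 6 highest with BATF, the 6 highest without, the 10 highest within 1 kb of a TSS, the 6 highest with AICE, the 3 closest to and the 3 farthest from a *Junb*-sufficient IRF4 peak, and the 30 highest within 100 kb of a listed gene. Lower peaks near listed genes (m7017 and above in number) were named after their values were seen, and results for 3 genes are not reported here.

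Python 3.11.15, NumPy 2.4.6, SciPy 1.17.1, pyfaidx 0.9.0.4, and matplotlib 3.10.9 were used. On simulated data, 40.65% of 20000 peaks had a partner and 40.65% were recovered, and 25% of 4000 windows held a planted AICE and 25% were found. No test between genotypes was possible with 1 library each. Overlap rules, parts of the lists, motif windows, TSS sets, and exchanged antibodies were tried as alternatives.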

Additional observations from a re-analysis of the deposited data

How the results depend on the processing

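Of 57 recomputed values, 28 moved by less than their interval or by less than 1.5 times for a count, and 29 moved. With centres within 100 bp as the criterion, BATF was at 31.9%, the median distance 1670 bp, the median place 10371, and AP-1 21.2%. With overlap of 50% of the narrower peak, these were 26.1%, 4529 bp, and place 11439. In the upper part of the *Junb*-deficient IRF4 list 430 peaks remained, with 4405.5 bp, place 7223.5, and AP-1 15.1%. With the upper part of the JunB list there were 349, with BATF 32.7%, 4940 bp, place 9109, and AP-1 22.3%. With BATF and IRF4 exchanged there were 2614, 77.5% of which overlapped the list then taken as BATF, at 21163 bp, place 11910, AP-1 21.0%, and a TSS within 1 kb at 15.6%. Motif windows of 50 bp on either side gave AP-1 13.9% and AICE 3.57%, and whole peaks AP-1 24.2%. A TSS was within 10 kb at 42.0%. Without peaks that had a *Junb*-sufficient peak within 10 kb, an alternative chosen after seeing the data, 308 were left, at place 17968 and a TSS within 1 kb at 15.6%. Widening *Junb*-sufficient peaks on either side by about their width left 709 and moved no value. In each alternative with the labels as titled, BATF was at most 32.7% and AP-1 at most 24.2%. No paired analysis was possible because each condition had 1 library. The lists hold no tag counts, so a peak just below the threshold cannot be told apart from no binding.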
